A study of Homo sapiens with 12 samples.

Results

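Metallothionein mRNA was examined in 12 RNA-seq libraries of breast cancer cells, for 6 genes of the family, MT2A, MT1E, MT1F, MT1G, MT1M and MT1X, out of 58735 genes measured. SK-BR-3, an established cell line from a human breast carcinoma, carries an ERBB2 amplification, and SK/EPI is its epirubicin-resistant derivative, obtained through prolonged culture in rising doses of the anthracycline epirubicin. SK/EPI cells were also transfected for 48 h with a control siRNA (SK/EPI-siNC) or an siRNA against BCRP (SK/EPI-siBCRP), the drug efflux pump encoded by ABCG2. Each of the 4 groups held 3 libraries, the labels do not say whether they came from separate cultures, and SK/EPI is 1 derived line, so p-values measure the spread between these libraries. The genes were selected on the SK/EPI and SK-BR-3 values, and MT1G also because its mRNA and protein calls in the study differed, so their levels in those cells are described without a test. No protein values were analysed here.

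Metallothioneins are small cytosolic proteins whose many cysteines bind zinc and copper, and toxic metals such as cadmium. They buffer free zinc and scavenge oxidants. Their genes lie in a cluster on chromosome 16 and are induced by zinc through the transcription factor MTF1, and MT2A also by glucocorticoids. MT2A is in most cells the main isoform, and the MT1 genes are close copies that differ in where and when they are used.

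The coding sequences, read from GENCODE 29 (GRCh38), are shown because they show how far the mRNAs can be told apart. Each had 186 bases, 61 codons before the stop and 3 exons, and 20 of the 61 codons (32.8%) encoded cysteine. The cysteine codons (TGC or TGT) are in capitals, 5′ to 3′.
MT2A: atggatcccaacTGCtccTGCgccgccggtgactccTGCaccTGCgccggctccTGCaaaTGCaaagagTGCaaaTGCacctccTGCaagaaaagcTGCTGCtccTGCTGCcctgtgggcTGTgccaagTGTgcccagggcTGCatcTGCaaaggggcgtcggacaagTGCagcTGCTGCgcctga
MT1F: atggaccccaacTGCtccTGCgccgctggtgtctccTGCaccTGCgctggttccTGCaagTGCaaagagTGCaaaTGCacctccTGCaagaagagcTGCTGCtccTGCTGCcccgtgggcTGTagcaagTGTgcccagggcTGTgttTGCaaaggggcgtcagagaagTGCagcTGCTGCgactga
MT1X: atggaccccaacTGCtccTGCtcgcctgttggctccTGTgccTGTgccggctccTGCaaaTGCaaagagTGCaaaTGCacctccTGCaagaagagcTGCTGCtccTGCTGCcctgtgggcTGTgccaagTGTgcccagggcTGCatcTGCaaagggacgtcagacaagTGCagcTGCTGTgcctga
MT1G: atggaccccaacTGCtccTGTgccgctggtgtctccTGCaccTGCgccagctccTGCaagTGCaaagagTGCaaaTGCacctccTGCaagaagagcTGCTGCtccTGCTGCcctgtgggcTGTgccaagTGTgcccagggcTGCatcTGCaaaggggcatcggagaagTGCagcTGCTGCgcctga
MT1M: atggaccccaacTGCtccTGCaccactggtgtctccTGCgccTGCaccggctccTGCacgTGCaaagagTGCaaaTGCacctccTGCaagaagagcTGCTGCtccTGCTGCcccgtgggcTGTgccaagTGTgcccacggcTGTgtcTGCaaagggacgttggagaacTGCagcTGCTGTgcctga
MT1E: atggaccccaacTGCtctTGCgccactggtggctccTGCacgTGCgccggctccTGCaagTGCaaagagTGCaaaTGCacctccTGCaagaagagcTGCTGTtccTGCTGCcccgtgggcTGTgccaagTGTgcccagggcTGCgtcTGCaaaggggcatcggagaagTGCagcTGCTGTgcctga

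Pairwise identity of the coding sequences ranged from 88.7% (MT1F with MT1X) to 95.2% (MT2A with MT1G), that is 9 to 21 differing bases. Of all 50-base windows along the main mRNA, 3.59% for MT1F, 4.88% for MT2A, 5.34% for MT1E and 7.05% for MT1M also occurred in a transcript of another gene. The share was 20.2% for MT1G, most of it with MT1X, and 45.1% for MT1X. Of the 181 shared windows of MT1X, 117 lay in AC026461.1, an annotated gene on the same strand that overlapped 321 bases (18.1%) of the MT1X exons and was listed at 0 in all 12 libraries. Levels of MT1G and MT1X were therefore less certain than those of MT2A and MT1F. How the counting treated shared reads was not tested.

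The genes lay on GRCh38 chromosome 16, and the values cover all annotated exons of each gene. MT2A (ENSG00000125148) spanned 56608199 to 56609497, MT1E (ENSG00000169715) 56625475 to 56627112, MT1M (ENSG00000205364) 56632233 to 56633986 and MT1F (ENSG00000198417) 56657694 to 56660698. MT1G (ENSG00000125144) spanned 56666731 to 56668065 and MT1X (ENSG00000187193) 56682424 to 56684196. MT1G is on the minus strand and the others are on the plus strand. By symbol, 21 metallothionein genes and pseudogenes were annotated, 12 of them protein coding, and 16 lay in a stretch of 119.1 kb on chromosome 16. Levels are in FPKM, reads scaled for the length of the annotated exons and for library depth. The annotated exons included retained introns and were longer than the main mRNA, 1.65 times for MT2A, 2.74 times for MT1F, 3.94 times for MT1X and 1.85 times for MT1G. FPKM thus understated the main mRNAs unequally, and levels compared between genes are also given per base of main mRNA, a scale chosen after seeing the data. A gene's ratio of FPKM between groups does not depend on its length.

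The libraries held between 15830381 and 20545811 reads on genes, as recovered from the FPKM values. ABCG2 was at a mean of 0.0497 FPKM in SK-BR-3, 34.1 in SK/EPI, 33.0 in SK/EPI-siNC and 3.08 in SK/EPI-siBCRP, in the order that the labels imply. Mitochondrial genes took 4.18% to 4.23% of the reads in SK-BR-3, 5.10% to 5.38% in SK/EPI, 3.58% to 3.68% in SK/EPI-siNC and 3.73% to 3.84% in SK/EPI-siBCRP. All 6 luminal and ERBB2 markers were expressed, the lowest at 43.6 FPKM. The 8 markers of fibroblasts, leukocytes and endothelium summed to between 8.44 and 29.2 FPKM. Without CDH5, the other 7 summed to at most 2.03 in any library. CDH5, an endothelial cadherin, was at 6.61 to 6.88 FPKM in SK-BR-3 and 26.8 to 27.9 in SK/EPI, 13.7 to 13.9 in SK/EPI-siNC and 22.0 to 22.3 in SK/EPI-siBCRP, while PDGFRA was listed at 0 in all 12. PTPRC, the pan-leukocyte marker, stayed at or under 0.0669 and COL1A2 at or under 0.0183. COL1A1, a fibroblast marker, averaged 1.57 FPKM in SK-BR-3, 0.794 in SK/EPI, 1.20 in SK/EPI-siNC and 1.06 in SK/EPI-siBCRP. CD3E reached 0.506 FPKM and CD68 0.0704, both in SK/EPI-siBCRP. PECAM1, the other endothelial marker, was also higher in SK/EPI (0.129 FPKM on average) than in SK-BR-3 (0.00915). The part of these marker differences in the results was not tested.

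In SK/EPI cells, MT1F, MT1G and MT1X were higher than in SK-BR-3 cells, and MT2A was lower. The 3 libraries of the groups did not overlap for any of these 4 genes, against 39.4% of all 15823 tested genes that did not overlap and were higher and 38.3% that did not overlap and were lower. Since this comparison was in view when the genes were chosen, nothing is read from the count. MT1E and MT1M had too few reads to be tested.

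MT2A, the most abundant member, was at 255.8, 203.9 and 219.6 FPKM in the SK-BR-3 libraries and at 91.5, 109.3 and 109.3 in the SK/EPI libraries. Every SK/EPI library was below every SK-BR-3 library. The means were 226 ± 26.6 and 103 ± 10.3 (SD, n = 3), 2.19-fold lower in SK/EPI, and the log2 fold change of FPKM + 1 was -1.12 (SE 0.10).

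MT1F moved the most. Its FPKM was 0.934, 1.23 and 0.806 in SK-BR-3, where it rested on 28 to 42 reads a library, and 31.8, 31.5 and 32.4 in SK/EPI. The means were 0.990 ± 0.218 and 31.9 ± 0.445 (SD, n = 3), 32.2-fold higher, and the ratio between single libraries of the 2 groups ran from 25.6 to 40.2. MT1F took rank 11825 of the 27598 genes above 0 in SK-BR-3 and rank 1315 of 29633 in SK/EPI, while MT2A went from rank 110 to rank 304.

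MT1X had 3.20, 4.78 and 4.15 FPKM in SK-BR-3 and 9.90, 10.5 and 9.30 in SK/EPI. The means of 4.04 ± 0.795 and 9.90 ± 0.591 (SD, n = 3) were 2.45-fold apart. MT1G, a low-level member, was at 1.26, 0.812 and 1.26 FPKM in SK-BR-3 (11 to 18 reads) and at 3.61, 3.62 and 3.13 in SK/EPI (44 to 53 reads), 3.11-fold higher. The plot of FPKM by library shows that these rises did not depend on 1 library.

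**Figure D1:**
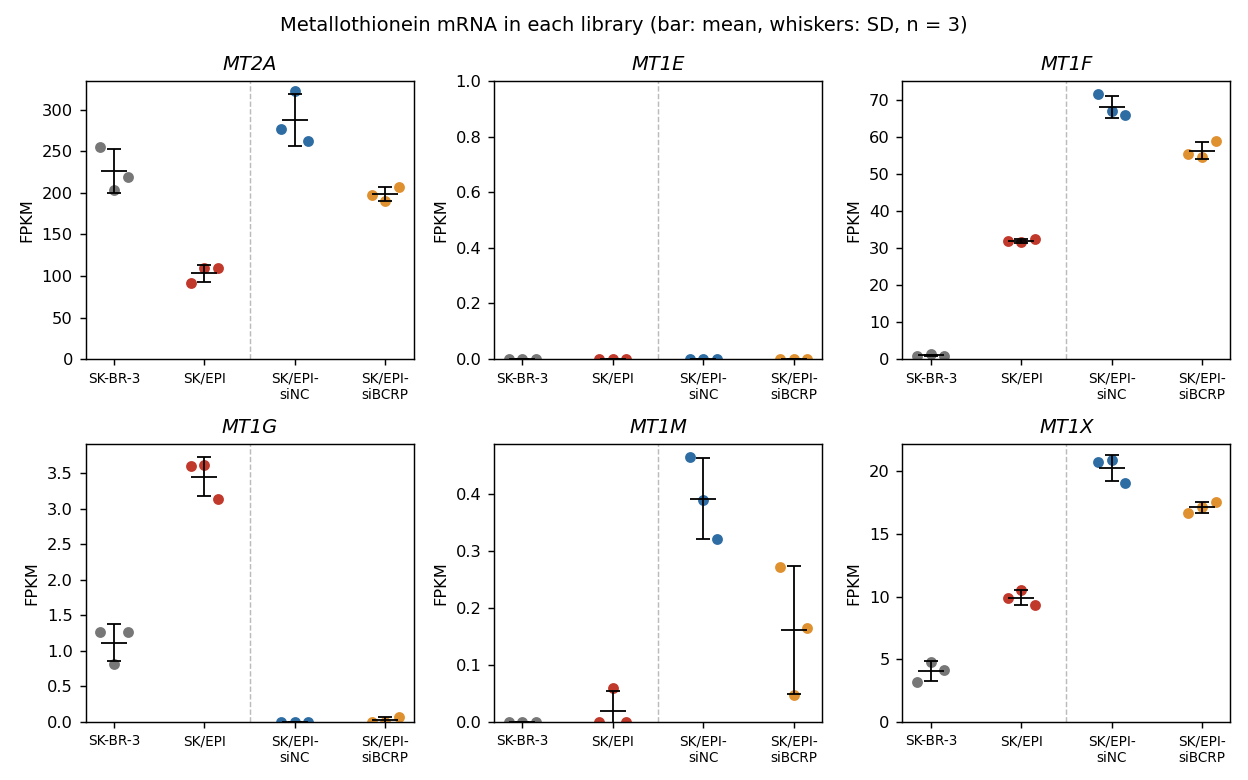
FPKM of the 6 metallothionein genes in each library (points), with the mean and SD of 3 libraries; the dashed line separates the 2 deposited tables and the y axes differ. MT2A fell and MT1F rose between SK-BR-3 and SK/EPI, MT1E was at 0 throughout, and MT1G was at or near 0 in the transfected cells.

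MT1M was at 0 reads in the 3 SK-BR-3 libraries and at 1 read in 1 of 3 SK/EPI libraries. MT1E was listed at 0 in all 12 libraries, and 3 reads would correspond to 0.125 to 0.180 FPKM, so its expression was not detectable at this depth. This limit covers counting error only, and the cause of the zeros was not tested.

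The make-up of metallothionein mRNA also differed between the 2 lines. The summed FPKM of the 6 genes was 233 ± 25.9 in SK-BR-3 and 149 ± 10.2 in SK/EPI (SD, n = 3). This sum understates MT1F and MT1X more than MT2A. MT2A made up 97.3% ± 0.589 of it in SK-BR-3 and 69.4% ± 2.22 in SK/EPI. The share of MT1F was 0.433% ± 0.131 and 21.5% ± 1.51, and that of MT1X 1.78% ± 0.524 and 6.68% ± 0.604. Per base of main mRNA, the share of MT2A was 94.7% in SK-BR-3 and 56.2% in SK/EPI. That of MT1F was 0.697% and 28.8%, and that of MT1X 4.11% and 12.9%. On that scale MT2A averaged 374 in SK-BR-3 and 171 in SK/EPI, MT1F 2.71 and 87.3, and MT1X 15.9 and 39.0. Of the reads on the 6 genes, MT1F took 0.625% and 28.1%. MT2A exceeded MT1F in FPKM 237-fold on average in SK-BR-3 and 3.24-fold in SK/EPI, and per base of main mRNA 143-fold and 1.96-fold. MT1F was below MT1X in SK-BR-3, at an FPKM ratio of 0.248, and above it in SK/EPI, at 3.23 (0.172 and 2.25 per base of main mRNA). In SK-BR-3, MT1F (0.806 to 1.23 FPKM) and MT1G (0.812 to 1.26) were not separable, while in SK/EPI the order MT2A, MT1F, MT1X, MT1G held without overlap, and both statements held on either length.

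**Figure D2:**
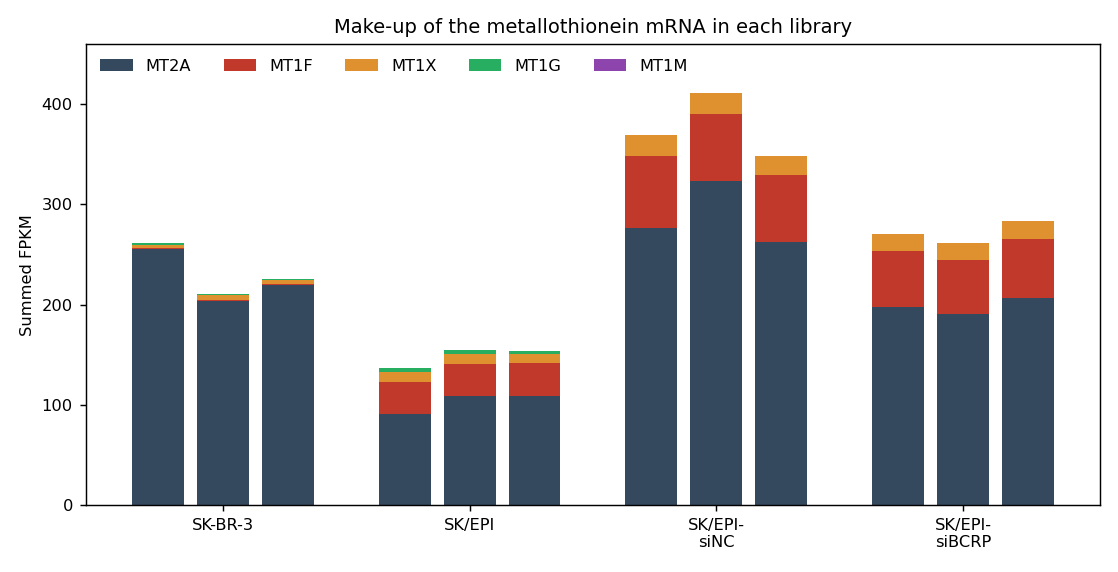
Summed FPKM of the expressed metallothionein genes in each library, stacked by gene (3 bars a group); MT1E was at 0 and MT1M is too low to be seen. MT1F made up 0.433% of the sum in SK-BR-3 and 21.5% in SK/EPI.

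After BCRP silencing in SK/EPI cells, MT2A, MT1F and MT1X were downregulated compared with those in SK/EPI-siNC cells. Of the 6 listed genes, all 3 with enough reads to be tested were called lower (limma on log2(FPKM + 1), Benjamini-Hochberg adjusted p under 0.05). Of 16298 tested genes, 18.7% were called lower and 19.4% were called higher. MT1A, a metallothionein outside the list, was also tested and was not called (log2 fold change 0.13, limma adjusted p = 0.587). MT1E, MT1G and MT1M were not tested. The rule for choosing the genes used no value of this comparison, although earlier results of both tables were known.

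MT2A was at 276.8, 323.2 and 263.0 FPKM in SK/EPI-siNC and at 198.0, 190.4 and 207.0 in SK/EPI-siBCRP. The groups did not overlap, and the means of 288 ± 31.6 and 198 ± 8.31 (SD, n = 3) gave a log2 fold change of -0.53 (SE 0.07, limma adjusted p = 0.00134). MT1F, at 71.6, 67.0 and 66.1 FPKM in SK/EPI-siNC, was at 55.5, 54.5 and 58.9 after silencing. Its log2 fold change was -0.27 (SE 0.04, limma adjusted p = 0.00173). MT1X changed from 20.8, 20.9 and 19.0 to 16.7, 17.1 and 17.6 FPKM, a log2 fold change of -0.23 (SE 0.04, limma adjusted p = 0.00402). In each gene, every silenced library was below every control library, and in linear FPKM MT2A fell by 31.0%, MT1F fell by 17.5% and MT1X fell by 15.45%. MT2A made up 74.9% to 78.5% of the summed FPKM in SK/EPI-siNC and 72.6% to 73.2% in SK/EPI-siBCRP.

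MT1M was at 0.465, 0.390 and 0.322 FPKM in SK/EPI-siNC, from 6 to 10 reads a library, and at 0.273, 0.0472 and 0.165 in SK/EPI-siBCRP, from 1 to 5 reads. With no filter on low genes it was not called (log2 fold change -0.27, limma adjusted p = 0.129). MT1G had 0 reads in 5 of the 6 transfected libraries and 1 read in SK/EPI-siBCRP replicate 3.

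SK/EPI and SK/EPI-siNC cells are in separate tables that may have been normalized apart, and transfection, culture and sequencing batch cannot be told apart, so their levels are given side by side with no test. MT2A averaged 103 FPKM in SK/EPI and 288 in SK/EPI-siNC, MT1F 31.9 and 68.2, and MT1X 9.90 and 20.3. The FPKM ratio of MT1F to MT1X was 3.23 in SK/EPI, 3.37 in SK/EPI-siNC and 3.29 in SK/EPI-siBCRP (2.25, 2.34 and 2.28 per base of main mRNA). MT1G went the other way, from 44 to 53 reads a library in SK/EPI to none in SK/EPI-siNC. Of 14776 genes with at least 10 reads in each SK/EPI library, 4 had at most 1 read in each of the 6 transfected libraries, MT1G, RET, SLC6A15 and SSX2B, named here after their values were seen. At a minimum of 40 reads, also set after seeing the values, MT1G was the 1 such gene of 12120. The reverse pattern was also seen. Of 14974 genes with at least 10 reads in each of the 6 transfected libraries, 10 had at most 1 read in each SK/EPI library. At a minimum of 40 reads, 1 of 12248 did.

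Of the 15 other metallothionein genes and pseudogenes, 4 had no read in any library and 12, those 4 included, had at most 3 reads in each. MT1A, MT1DP and MT1P1 reached more, with at most 18, 12 and 7 reads in a library. MT1A was at a mean of 0.318 FPKM in SK-BR-3, 0.814 in SK/EPI, 1.27 in SK/EPI-siNC and 1.44 in SK/EPI-siBCRP, and its groups overlapped in both comparisons. MT1DP was at a mean of 0 FPKM in SK-BR-3, 0.453 in SK/EPI, 1.48 in SK/EPI-siNC and 2.70 in SK/EPI-siBCRP. Expression in the cluster was thus seen mainly at MT2A, MT1F and MT1X, and in SK-BR-3 and SK/EPI also at MT1G. MT1F, MT1G and MT1X lie 49.5, 58.5 and 74.2 kb away from MT2A. The genes between MT2A and MT1F had at most 18 reads in a library.

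**Figure D3:**
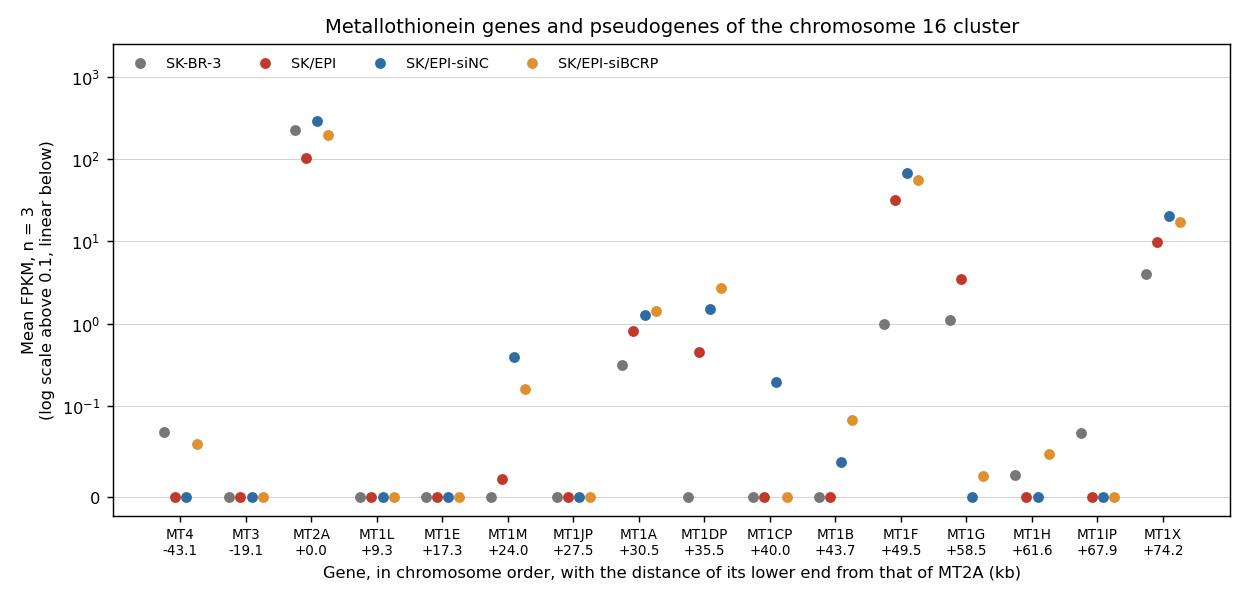
Mean FPKM (n = 3) of the 16 metallothionein genes and pseudogenes of the cluster, in chromosome order with their distance from MT2A in kb; the y axis is logarithmic above 0.1 and linear below. MT1E, at 17.3 kb, is at 0 in the 4 groups, and MT1F, at 49.5 kb, differs most between SK-BR-3 and SK/EPI.

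Genes next to the cluster were called in both directions, higher more often than lower. Of 66 genes within 1 Mb that are not metallothioneins, 29 were tested in SK/EPI against SK-BR-3, and 14 were called higher, 8 lower and 7 not called, where 37.9% of all tested genes were called higher and 37.0% lower. The median log2 fold change was 0.14, against 0.01 over all tested genes. NLRC5, a regulator of MHC class I genes, was higher (log2 fold change 2.06), as were DOK4 (0.75) and PLLP (0.72), and HERPUD1, a stress gene of the endoplasmic reticulum, was lower (-1.05) beside SLC12A3 (-1.07) and AC012181.2 (-0.97). After silencing, the median log2 fold change of the neighbours was 0.04, against -0.00358 over all tested genes. Of 31 tested, 8 were called higher, 5 lower and 18 not called, where 19.4% of all tested genes were called higher and 18.7% lower. NUDT21, a 3′ end processing factor, had the largest fall among them (log2 fold change -0.76, limma adjusted p = 3.32e-06), followed by CES1 (-0.63) and POLR2C (-0.25), and COQ9 (0.40), NLRC5 (0.33) and CX3CL1 (0.33) rose.

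The upstream 250 bases were read from RefSeq (GRCh38.p14) for MT2A and MT1X, 2 of the 6 genes that had an entry. MT1E, MT1F, MT1G and MT1M had none. The MT2A and MT1X stretches are shown because only these genes had an entry. Both mRNAs fell after silencing and went opposite ways between the lines. The core of the metal response element, which MTF1 binds, was searched as TGCGCNC or TGCACNC on both strands, and matches are in capitals. The MT2A stretch is chr16:56608334-56608583 and the MT1X stretch is chr16:56682220-56682469, plus strand, ending at the base before the start site.
MT2A: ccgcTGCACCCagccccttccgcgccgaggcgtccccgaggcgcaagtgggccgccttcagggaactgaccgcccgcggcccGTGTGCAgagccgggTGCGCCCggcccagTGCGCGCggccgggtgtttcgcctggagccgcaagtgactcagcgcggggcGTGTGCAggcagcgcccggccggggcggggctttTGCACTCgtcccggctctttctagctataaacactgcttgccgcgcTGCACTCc
MT1X: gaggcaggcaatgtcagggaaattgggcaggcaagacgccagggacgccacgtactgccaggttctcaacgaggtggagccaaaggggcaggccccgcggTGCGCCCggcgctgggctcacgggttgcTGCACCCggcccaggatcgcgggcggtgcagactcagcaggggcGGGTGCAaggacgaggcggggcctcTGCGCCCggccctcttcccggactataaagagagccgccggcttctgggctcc

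MT2A held 7 matches, 2 of TGCGCNC and 5 of TGCACNC, and MT1X held 4, 2 of each. Among 35116 RefSeq promoters of the same length, 24.8% held at least 1 match, 0.370% at least 4 and 0.0313% at least 7. Both promoters were thus dense in these letters although MT2A was lower and MT1X higher in SK/EPI than in SK-BR-3. A match describes the sequence only, and MTF1 binding was not measured.

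MTF1 itself, the zinc sensor, was at 4.08 ± 0.101 FPKM in SK-BR-3 and 4.23 ± 0.177 in SK/EPI (limma adjusted p = 0.478), and at 4.54 ± 0.200 in SK/EPI-siNC and 5.16 ± 0.321 in SK/EPI-siBCRP (limma adjusted p = 0.0650). SLC30A1, a zinc exporter of the plasma membrane that is also an MTF1 target, was upregulated from 9.37 ± 0.358 to 34.4 ± 0.657 FPKM in SK/EPI (log2 fold change 1.77, limma adjusted p = 5.57e-09). After silencing it was slightly higher, at 38.2 against 34.2 FPKM (log2 fold change 0.15, limma adjusted p = 0.00109), while MT2A, MT1F and MT1X were lower.

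In the lists that follow, values in parentheses are log2 fold changes of FPKM + 1, and higher, lower, rose and fell refer to genes called by limma. Of all tested genes, 37.9% were called higher and 37.0% lower in SK/EPI against SK-BR-3. After silencing these shares were 19.4% and 18.7%. Of the 10 zinc exporter genes of the SLC30 family, 7 were tested in SK/EPI against SK-BR-3, with 4 higher and 3 lower. SLC30A2 (1.56) and SLC30A5 (0.50) also rose, and SLC30A4 (-0.63), SLC30A7 (-0.57) and SLC30A9 (-0.33) fell. After silencing, 2 of 8 were higher (SLC30A1 and SLC30A6, 0.17), 1 was lower (SLC30A5, -0.18) and 5 were not called. Of the 14 zinc importer genes of the SLC39 family, 11 were tested, with 5 higher, 5 lower and 1 not called in SK/EPI. SLC39A8, which carries zinc, manganese and cadmium into cells, rose from 0.418 ± 0.0529 to 21.0 ± 0.415 FPKM (log2 fold change 3.96), SLC39A10 (2.26) and SLC39A4 (0.95) also rose, whereas SLC39A7 (-0.99), SLC39A6 (-0.94) and SLC39A11 (-0.71) fell. After silencing, 5 importers were higher, 3 lower and 3 not called. SLC39A9 (-0.56), SLC39A8 (-0.40, from 67.5 to 51.0 FPKM) and SLC39A11 (-0.23) fell, and SLC39A14 (0.26), SLC39A7 (0.26) and SLC39A3 (0.24) rose.

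Of the 12 copper handling genes, all tested, 5 were higher, 6 lower and 1 not called in SK/EPI. ATP7B, a copper-exporting ATPase, rose (log2 fold change 2.46), as did ATOX1 (0.77), a copper chaperone, and SCO2 (0.47), and the importer SLC31A1 (-1.14), CUTC (-0.63) and COX17 (-0.59) fell. After silencing, 3 were higher, 4 lower and 5 not called, with ATP7A (-0.73), ATP7B (-0.28) and CUTC (-0.23) lowest and SCO1 (0.28), SLC31A1 (0.26) and ATOX1 (0.21) highest among those called. Of the 11 metal and heat stress genes, 6 were higher, 4 lower and 1 (MTF1) not called in SK/EPI. HMOX1, the heme oxygenase induced by metals and oxidants, rose from 5.39 to 26.0 FPKM (log2 fold change 2.08), HSPB1 (1.25), a small heat shock protein, and HSPA1B (1.22) also rose, while BAG3 (-1.10), HSPH1 (-0.61) and DNAJB1 (-0.51) fell. After silencing, 4 were higher, 2 lower and 5 not called, with HSPB1 (0.62), HSPH1 (0.22) and BAG3 (0.19) higher and HSPA1A (-0.17) and HMOX1 (-0.13) lower.

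Of the 8 genes of the glucocorticoid response, 7 were tested, with 3 higher, 2 lower and 2 not called in SK/EPI. SGK1 (3.06), DUSP1 (1.40) and NR3C1 (0.86), the glucocorticoid receptor, rose. TSC22D3 (-2.37) and KLF9 (-0.47) fell. After silencing, 4 were lower, 3 were not called and 0 were called higher by limma (0 at an unadjusted p under 0.05, 0 with voom). Of all tested genes, 18.7% were called lower and 19.4% higher. TSC22D3 (-0.73), NR3C1 (-0.41) and SGK1 (-0.39) fell the most, and PER1 (-0.20) also fell. The median log2 fold change of this list after silencing was -0.20, and that of all tested genes was -0.00358. Of the 6 luminal and ERBB2 markers, 2 were higher, 3 lower and 1 not called in SK/EPI and 6 were lower after silencing. ERBB2 fell from 659 FPKM in SK-BR-3 to 133 in SK/EPI (-2.30). KRT19 (-1.69) and GRB7 (-1.27) also fell there, and KRT18 (0.75) and KRT8 (0.24) rose. The largest falls after silencing were those of GRB7 (-0.49), KRT19 (-0.44) and KRT8 (-0.23).

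**Figure D4:**
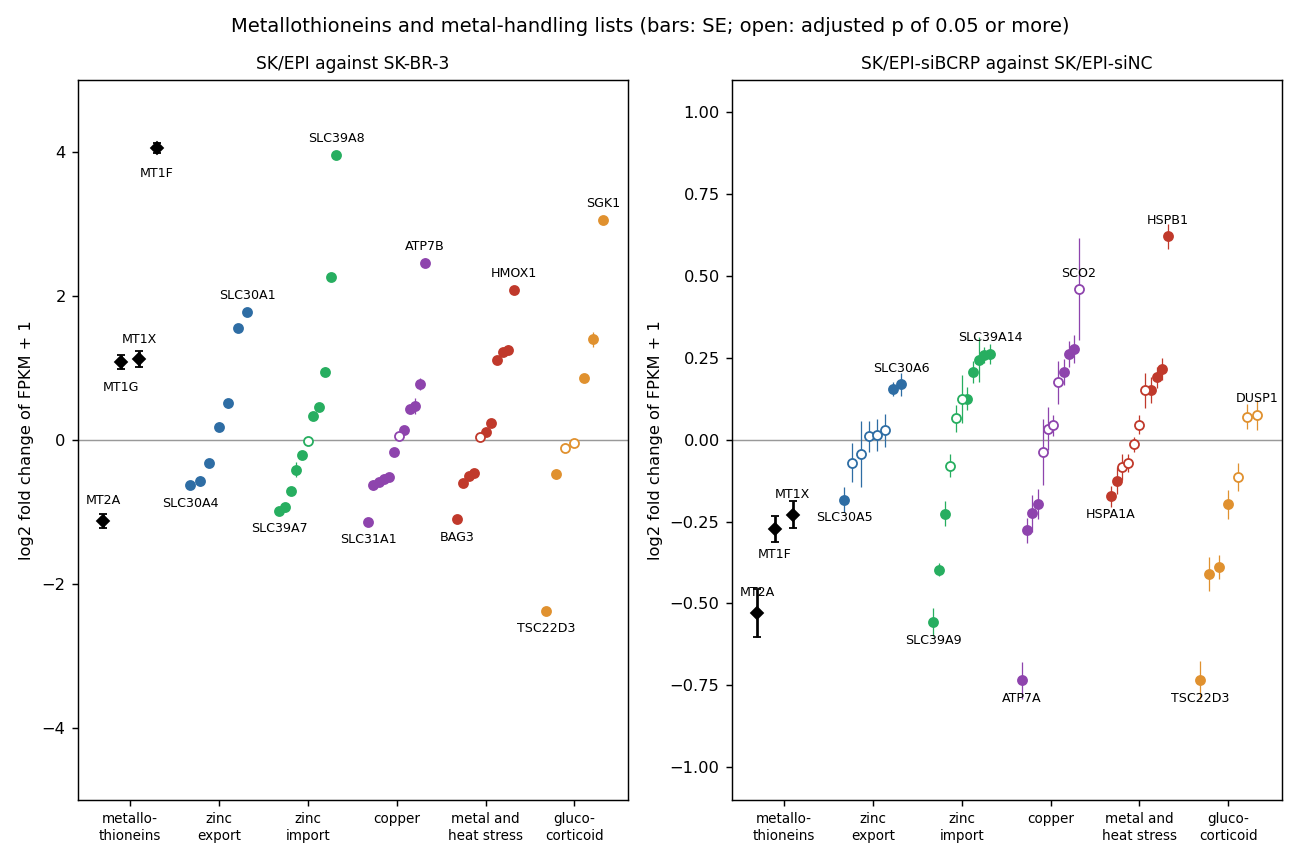
Log2 fold changes of FPKM + 1 for the listed metallothioneins that were tested (diamonds) and 5 lists of genes (circles), with SE bars. Circles are open where the limma adjusted p was 0.05 or more, and the y axes differ. MT2A lies below 0 and MT1F at 4.05 in SK/EPI against SK-BR-3. After BCRP silencing, the 3 listed metallothioneins that were tested lie below 0. The zinc, copper and metal and heat stress lists are split. In the glucocorticoid list, 4 of 7 tested genes were called lower and 0 higher, against 18.7% and 19.4% of all tested genes. MT1A is not drawn.

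The genes whose levels followed the summed metallothionein FPKM most closely, by the smaller of the Pearson correlations within the 2 tables (6 libraries each, which share their group difference and their depth), were ARF5 (0.970), RGL2 (0.969), HNRNPL (0.967), SSH3 (0.967) and TALDO1 (0.966), out of 4009 genes compared. The sum is mostly MT2A. TALDO1, an enzyme of the pentose phosphate pathway, averaged 88.6 FPKM in SK-BR-3 and 57.8 in SK/EPI, and 66.5 in SK/EPI-siNC and 59.7 in SK/EPI-siBCRP, so the differences of this gene were smaller than those of MT2A.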

How the data were processed

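Poly-A RNA-seq libraries were grouped, with 3 in each of 4 groups, from the submitters' labels, which also give the 48 h of siRNA treatment. The authors deposited FPKM values for 58735 genes in 2 tables, SK-BR-3 with SK/EPI and SK/EPI-siNC with SK/EPI-siBCRP. The unit is not written in the tables and was inferred from the values. The submitters' processing notes name HISAT2 2.0.5, featureCounts 1.5.0-p3, DESeq2 1.16.1 and hg38, without their roles, and how strand and multiply aligned reads were handled is not given in the sources used here. Each FPKM value times the merged exon length of the gene in GENCODE 29 was a whole multiple of 1 read (tolerance 0.02) for 100% of values, which gave the reads and the depth.

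Tests covered genes that reached 10 reads, scaled to the median library size, in 3 or more libraries and 15 reads in total, 15823 and 16298 in the 2 tables. Within each table, limma 3.58.1 (R 4.3.3; lmFit, eBayes with trend) was fitted to log2(FPKM + 1) with the group as the only term, and adjustment was by Benjamini-Hochberg (threshold 0.05). A fold change on this scale understates the change of low genes. The fit was tested on simulated data. Floors are the FPKM of 3 reads and cover counting error only.

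The members and the lists (zinc export and import, copper handling, metal and heat stress, glucocorticoid response, markers of luminal and other cells, and neighbours within 1 Mb) were chosen with earlier results of these data known. All 6 members, MTF1 and SLC30A1 are named. From each list except the markers of other cells, up to 3 called genes in each direction with the largest log2 fold change are named. SCO2 has 2 gene identifiers, and the one with the higher mean FPKM over the SK-BR-3 and SK/EPI libraries was used. Nearest patterns were taken among genes of mean FPKM of at least 10 in both tables. Coding sequences were aligned globally with Biopython 1.88. Python 3.11.15, numpy 2.4.6 and pandas 2.3.3 were used. Alternatives were other filters, TPM, nuclear-gene and median-of-ratios scaling, a pseudocount of 0.1, voom on the recovered reads, a replicate block, each library left out and, added after seeing the data, the main mRNA length. Protein values were left out, since none were analysed here.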

Additional observations from a re-analysis of the deposited data

How the results depend on the processing

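Under 14 alternatives for the fits, the 3 metallothioneins called lower after BCRP silencing remained called in every one. Their adjusted p (limma) reached at most 0.00986 for MT2A, 0.01002 for MT1F and 0.0171 for MT1X. MT2A ranged from -0.59 to -0.44, MT1F from -0.31 to -0.24 and MT1X from -0.27 to -0.21 on the log2 scale. The 4 members without overlap in SK/EPI against SK-BR-3 (3 higher, 1 lower) numbered 4 under each scaling and without each library. The fitted log2 fold change of MT1F there was 4.05 and ranged from 3.99 to 5.10, that of MT1G from 0.98 to 1.72 and that of MT1X from 1.00 to 1.38, each highest with voom on the recovered reads, which adds a smaller offset to low values. Scaling by reads on nuclear genes moved the summed FPKM to 166 in SK/EPI, 312 in SK/EPI-siBCRP and 435 in SK/EPI-siNC, and median-of-ratios scaling to 300.1 in SK/EPI-siBCRP and 414 in SK/EPI-siNC, with the same order of the groups within each table. Leaving out 1 library gave 5103 to 5403 called genes after silencing and 11237 to 11547 in SK/EPI against SK-BR-3, from 6215 and 11854. With no filter on low genes, 4654 genes were called after silencing, the lowest count of any alternative, and no count of called genes moved by more than 1.5 times. Taking the length of the main mRNA in place of the merged exons, an alternative chosen after seeing the data, lowered the share of MT2A in all 4 groups, to 59.6% in SK/EPI-siBCRP and 63.9% in SK/EPI-siNC, for example. Same-numbered libraries did not deviate together (correlations of -0.0485 to -0.00201 in the first table and 0.00923 to 0.0551 in the second), so the numbers were not taken as pairs. With the replicate block, 5640 genes were called after silencing and 11656 in SK/EPI against SK-BR-3, and 3 members were called. Depth limits MT1E, MT1M and, in transfected cells, MT1G, which had at most 10 reads in a library.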
